A study of Mus musculus with 20 samples.

Results

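Lipopolysaccharide (LPS), the outer membrane glycolipid of Gram-negative bacteria, is sensed by a short chain of proteins. Of the 57180 gene identifiers in the deposited count table, 6 encode this chain or, for Tlr2, a receptor for bacterial lipoproteins that shares its CD14. The 6 described here are Lbp (ENSMUSG00000016024), Cd14 (ENSMUSG00000051439), Tlr4 (ENSMUSG00000039005), Ly96 (ENSMUSG00000025779), Tlr2 (ENSMUSG00000027995) and Myd88 (ENSMUSG00000032508). They were selected on measured values of these libraries, because Lbp moved in opposite directions in the regions studied. The effects of treatment on Lbp are therefore given as a description with no test, and the other 5 genes were taken with it for their role. Each of the 6 genes passed the filter on low counts in every comparison.

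The STZ groups came from mice given 1 intraperitoneal dose of 200 mg/kg streptozotocin, a toxin of pancreatic beta cells, as a model of painful diabetic neuropathy. The control groups came from mice given vehicle, and tissue of both was taken at week 7. Punches of the PVT, the paraventricular nucleus of the midline thalamus beside the third ventricle, gave 6 STZ and 4 control libraries. Punches of the pIC, the posterior part of the insular cortex, gave 6 STZ and 4 control libraries as well, 20 libraries in all. The sources used here do not state strain, sex, age or blood glucose. Library names share an animal-like code across the regions, but no label states that libraries of a group are separate animals, so p-values measure the spread between these libraries.

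In the textbook pathway, LBP is a secreted protein that extracts LPS monomers and hands them to CD14, a receptor without a signalling tail on myeloid cells. CD14 passes LPS to MD-2, the product of Ly96, which sits on the receptor TLR4. TLR2 recognises bacterial lipoproteins with the help of the same CD14, and both receptors signal through the adaptor MyD88 to NF-kB. In the brain, microglia and the macrophages of the meninges, vessels and choroid plexus are the usual carriers of CD14, TLR4, MD-2 and TLR2.

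Libraries held 17.9 M to 25.5 M counts, and levels are given as CPM, counts scaled to a common library total of 1 M, which are not divided by gene length and so are not compared between genes. The labelled regions had their markers: thalamus neuron genes summed to 382 to 1580 CPM in PVT libraries and 60.9 to 114 CPM in pIC libraries, and 7 of 7 cortical excitatory genes were lower in PVT (edgeR, adjusted p under 0.05). PVT libraries also held 1400 to 6190 CPM of 13 choroid plexus genes, against 8.35 to 148 CPM in pIC libraries. PVT control replicate 4 stood apart, with 14800 CPM of hypothalamus and pituitary genes against at most 921 CPM in any PVT STZ library. pIC STZ replicate 3 held the 148 CPM of choroid plexus genes and, with 2900 CPM, the most striatal genes of its region. Striatal genes varied in PVT punches as well, from 174 to 2610 CPM in STZ and from 235 to 1140 CPM in control libraries. Of these 7 genes 0 were called between the regions (edgeR).

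Lbp was lower in STZ than in control punches of the PVT and higher in STZ than in control punches of the pIC, which is the pattern it was chosen for. In the PVT, the 6 STZ libraries had a lowest, median and highest level of 11.8, 18.9 and 20.8 CPM, and the control libraries had 40.3, 31.3, 27.1 and 35.9 CPM. Every STZ library was below every control library, a separation in that direction shown by 3.91% of the 17076 genes tested in PVT. In the pIC, the STZ libraries had 1.16, 2.06 and 2.25 CPM as lowest, median and highest, and the control libraries had 1.17, 0.821, 1.77 and 0.786 CPM. Here the groups overlapped: 5 STZ libraries lay above all controls, and replicate 6 lay below 2 of the 4.

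As log2 fold changes of STZ over control, Lbp stood at −0.95 (SE 0.174) in PVT and 0.77 (SE 0.256) in pIC. The difference between regions was −1.75 (SE 0.314). These values chose the genes, so their SEs describe the spread between libraries and are not a test. The pIC values rest on 21 to 53 counts per STZ library and 17 to 36 counts per control library, and the PVT values on 288 to 545 counts per STZ library and 608 to 978 counts per control library. Leaving out any 1 library kept these directions, with log2 fold changes from −1.05 to −0.85 in PVT and from 0.63 to 1.07 in pIC. This does not test values that were chosen on the same libraries. Without PVT control replicate 4 the PVT value was −0.92, and without pIC STZ replicate 3 the pIC value was 0.74. In bulk punches, fewer cells of a type and less RNA per cell cannot be told apart.

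**Figure D1:**
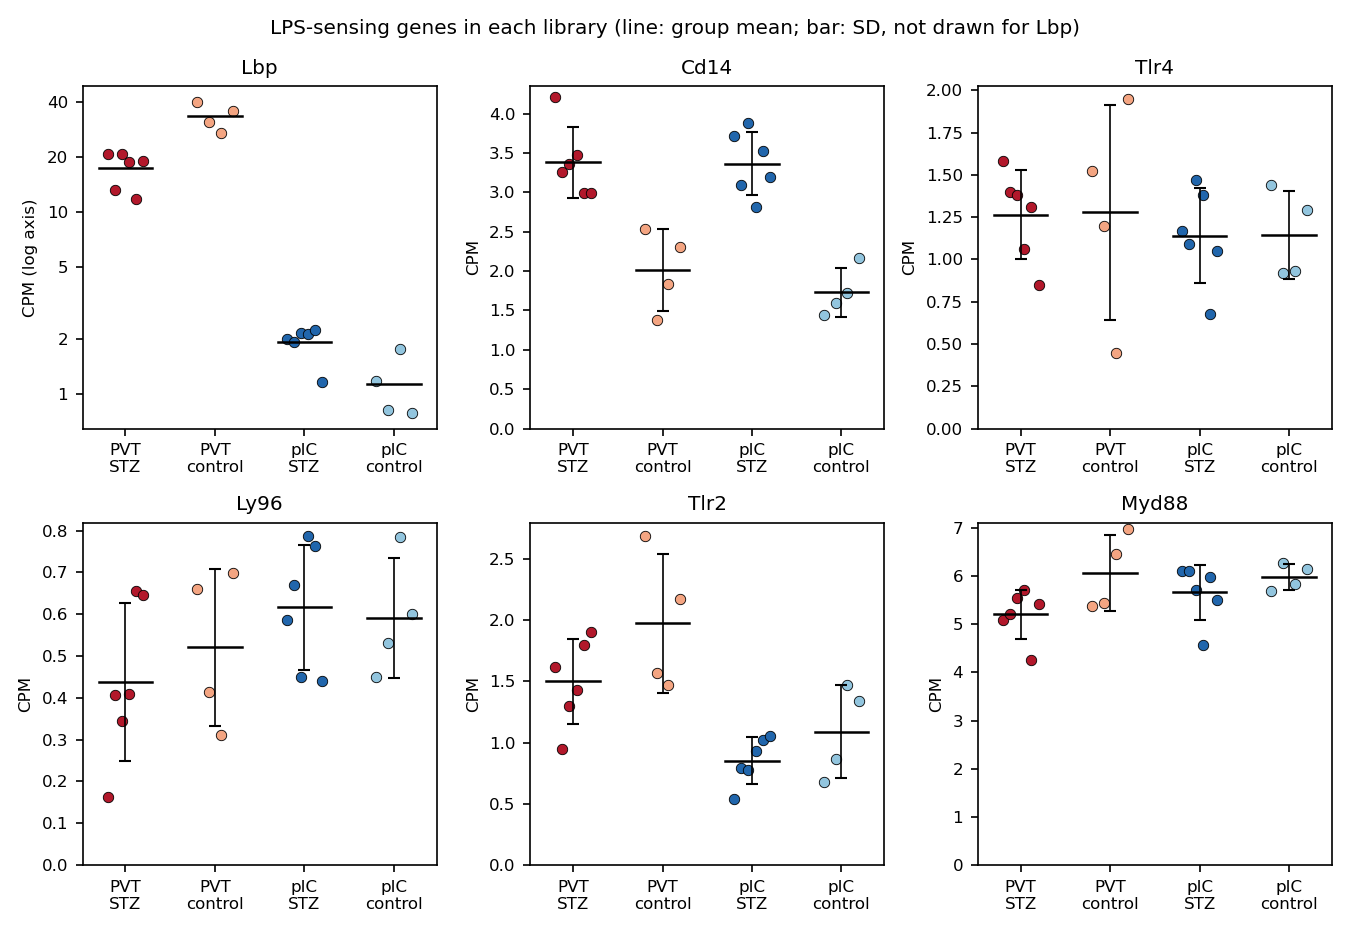
Level in CPM (vertical axis, logarithmic for Lbp and linear from 0 for the other genes) of the 6 LPS-sensing genes in each library, by region and treatment. Points are libraries, horizontal lines group means, and bars the SD, which is not drawn for Lbp. The STZ and control points of Lbp in PVT and of Cd14 in both regions do not overlap.

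Lbp in PVT varied together with genes of the tissue that lines the ventricle. The choroid plexus list summed to 1400 to 3450 CPM in STZ and 3060 to 6190 CPM in control libraries of the PVT, and the 10 ependyma genes to 76.6 to 111 CPM in STZ and 124 to 162 CPM in control libraries. None of the listed markers was at 0 throughout a group. Of the ependyma genes, 7 of 10 fell in PVT STZ punches, where 1.59% of all tested genes fell, among them Foxj1, the master regulator of motile cilia (log2 fold change −0.61, SE 0.127, adjusted p = 0.033). Of the choroid plexus genes, 0 of 13 passed the edgeR test, while 11 had an unadjusted p under 0.05, as did 17.8% of all genes. Their median log2 fold change was −0.745 against 0.0038 for all genes. DESeq2 called 4 of these 13 genes and limma-voom 0. Of the 10 ependyma genes DESeq2 called 9 and limma-voom 4.

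Across the 10 PVT libraries the Pearson correlation of log2 Lbp with the mean log2 level of the choroid plexus genes was 0.94, and with that of the ependyma genes it was also 0.94. Across the 10 pIC libraries the same values were 0.18 and 0.22. The strongest values in pIC were those of other marker lists, −0.82 for endothelium, 0.76 for border macrophages and −0.7 for microglia. In PVT the next strongest were 0.7 for oligodendrocytes and 0.67 for microglia, so the ventricular lists were not alone in varying with Lbp. The points of a region share dissection and treatment, so these values describe the libraries only. Per 100 CPM of ependyma genes, Lbp stood at 14.7 to 23.0 CPM in STZ and 19.4 to 25.3 CPM in control libraries of the PVT. These ranges overlap, while the medians were 17.7 CPM in STZ and 23.7 CPM in control libraries. Per 100 CPM of choroid plexus genes Lbp stood at 0.555 to 0.844 CPM in STZ and 0.651 to 0.885 CPM in control libraries. These overlap too, with medians of 0.63 CPM in STZ and 0.776 CPM in control libraries.

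In the pIC, Lbp per 100 CPM of ependyma genes was 7.69 to 17.8 CPM in STZ and 5.21 to 11.3 CPM in control libraries. pIC STZ replicate 3, with its 148 CPM of choroid plexus genes against at most 26.9 CPM in pIC control libraries, had 2.16 CPM of Lbp, within the range of the other STZ libraries. With the choroid plexus score as a covariate, the log2 fold change of Lbp was −0.47 in PVT and 0.76 in pIC. The part of ventricular tissue in the Lbp difference was not tested beyond these values.

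**Figure D2:**
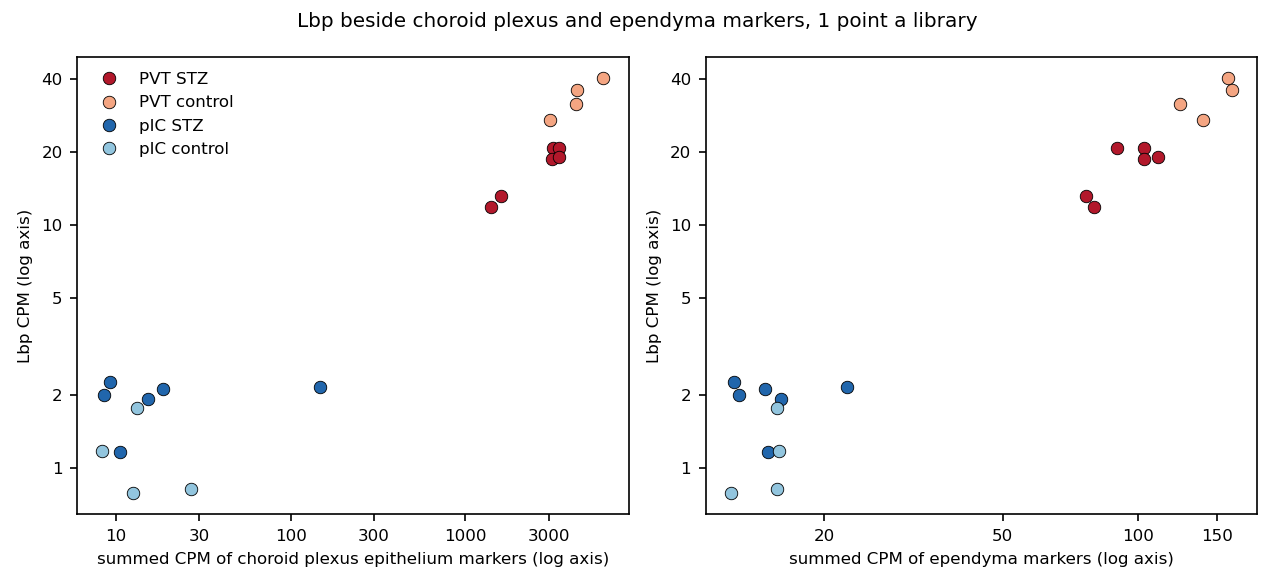
Lbp level (vertical axis, CPM, logarithmic) against the summed level of 13 choroid plexus genes (left) or 10 ependyma genes (right; horizontal axes, CPM, logarithmic), with 1 point per library coloured by group. In PVT the STZ points lie lower on both axes than most control points; in pIC the groups overlap on each axis.

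Cd14, the co-receptor that takes LPS from LBP, rose in the pIC of STZ mice. The pIC STZ libraries had 2.81, 3.36 and 3.88 CPM as lowest, median and highest, and the pIC control libraries had 1.44, 1.59, 1.72 and 2.17 CPM. Every STZ library was above every control library, which 1.88% of the 16189 genes tested in pIC showed in that direction (0 of the 6 members showed the reverse in pIC, as 2.4% of tested genes did). The log2 fold change was 0.96 (SE 0.160, 95% interval 0.62 to 1.30, adjusted p = 0.00653, edgeR quasi-likelihood test), or 1.95-fold. The adjusted p was between 0.00733 and 0.0347 without any 1 of the 10 libraries. Over 19 alternatives it ran from 9.2e-05 to 0.0611, the highest with the microglia score as a covariate, which alone ended the call.

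In the PVT, Cd14 had 2.99, 3.31 and 4.21 CPM as lowest, median and highest of the STZ libraries, and 2.54, 1.38, 1.83 and 2.31 CPM in the control libraries. These groups did not overlap either, as was the case for 2.28% of tested genes with STZ higher. The log2 fold change was 0.74 (SE 0.182, 95% interval 0.34 to 1.14), and its adjusted p of 0.065 in edgeR missed the threshold of 0.05. DESeq2 called Cd14 in PVT (adjusted p = 0.00653), as did limma-voom (adjusted p = 0.0408) and a fit of all 20 libraries (adjusted p = 0.0145), while over all 19 alternatives its adjusted p ran from 0.00653 to 0.266. The difference between regions in the Cd14 effect was −0.23 (SE 0.231, 95% interval −0.71 to 0.25, adjusted p = 1.0).

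Of the 5 genes besides Lbp, the edgeR test thus called 0 in PVT, where 0.474% of all genes were called higher and 1.59% lower, and 1 of 5 had an unadjusted p under 0.05, as did 17.8% of all genes. In pIC it called 1 of 5, Cd14, where 0.432% of all genes were called higher and 0.964% lower. The median log2 fold change of these 5 genes was −0.22 in PVT and −0.01 in pIC, beside 0.0038 and −0.00063 over all genes tested.

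The summed level of border macrophage markers was higher in STZ than in control punches, as Cd14 was, while only part of the list passed the test, and summed microglia markers overlapped between the groups. The 8 border macrophage genes summed to 18.7 to 28.4 CPM in STZ and 14.7 to 16.2 CPM in control libraries of the PVT, and to 23.4 to 31.6 CPM in STZ and 15.6 to 19.0 CPM in control libraries of the pIC. Stab1, a scavenger receptor, rose in PVT (0.62, SE 0.0812, adjusted p = 0.00269) and in pIC (0.58, SE 0.0845, adjusted p = 0.00218). F13a1, a coagulation factor subunit of resident macrophages, rose in PVT (1.07, SE 0.221, adjusted p = 0.0329), and Lyve1, a hyaluronan receptor of perivascular macrophages, in pIC (1.15, SE 0.216, adjusted p = 0.0153). In all, 2 of 8 tested genes of the list rose in PVT and 2 of 7 in pIC, with median log2 fold changes of 0.51 and 0.58, and 0 fell. Of all tested genes, 0.474% rose in PVT and 0.432% in pIC. DESeq2 called 3 genes of the list in each region, and limma-voom called 1 in PVT and 2 in pIC. Not every marker was higher: Ms4a7 averaged 0.317 CPM in STZ and 0.632 CPM in control libraries of the PVT (log2 fold change −0.97, adjusted p = 0.208) and 0.264 CPM in STZ and 0.449 CPM in control libraries of the pIC, where it was not tested, and Pf4 had −0.27 in PVT (adjusted p = 0.683). Stab1, at 11.6 CPM in STZ and 7.54 CPM in control libraries of the PVT and 12.4 CPM in STZ and 8.29 CPM in control libraries of the pIC, made up a large share of the sums. The mean log2 CPM of the list overlapped in PVT, with 0.342 to 1.07 in STZ and 0.224 to 0.538 in control libraries. In pIC it did not, with 0.75 to 1.3 in STZ and 0.484 to 0.687 in control libraries.

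The 14 microglia genes summed to 421 to 465 CPM in STZ and 442 to 512 CPM in control libraries of the PVT, and to 432 to 495 CPM in STZ and 440 to 510 CPM in control libraries of the pIC. Of these genes 0 rose, and only Aif1, the actin-bundling protein Iba1, fell, in PVT (−0.69, SE 0.152, adjusted p = 0.0436). Per 100 CPM of microglia genes, Cd14 stood at 0.662 to 0.925 CPM in STZ and 0.27 to 0.559 CPM in control libraries of the PVT, and at 0.609 to 0.855 CPM in STZ and 0.298 to 0.44 CPM in control libraries of the pIC, with no overlap in either region. Per 100 CPM of border macrophage genes the groups overlapped, with 13.4 to 16.0 CPM in STZ and 9.4 to 16.4 CPM in control libraries of the PVT, and 10.1 to 16.2 CPM in STZ and 7.84 to 13.9 CPM in control libraries of the pIC. Monocyte and neutrophil genes, which also mark CD14-bearing blood cells, summed to 1.35 to 5.58 CPM in PVT STZ, 1.42 to 3.67 CPM in PVT control, 1.48 to 2.26 CPM in pIC STZ and 1.29 to 2.7 CPM in pIC control libraries. The part of macrophage number in the Cd14 difference was not tested.

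**Figure D3:**
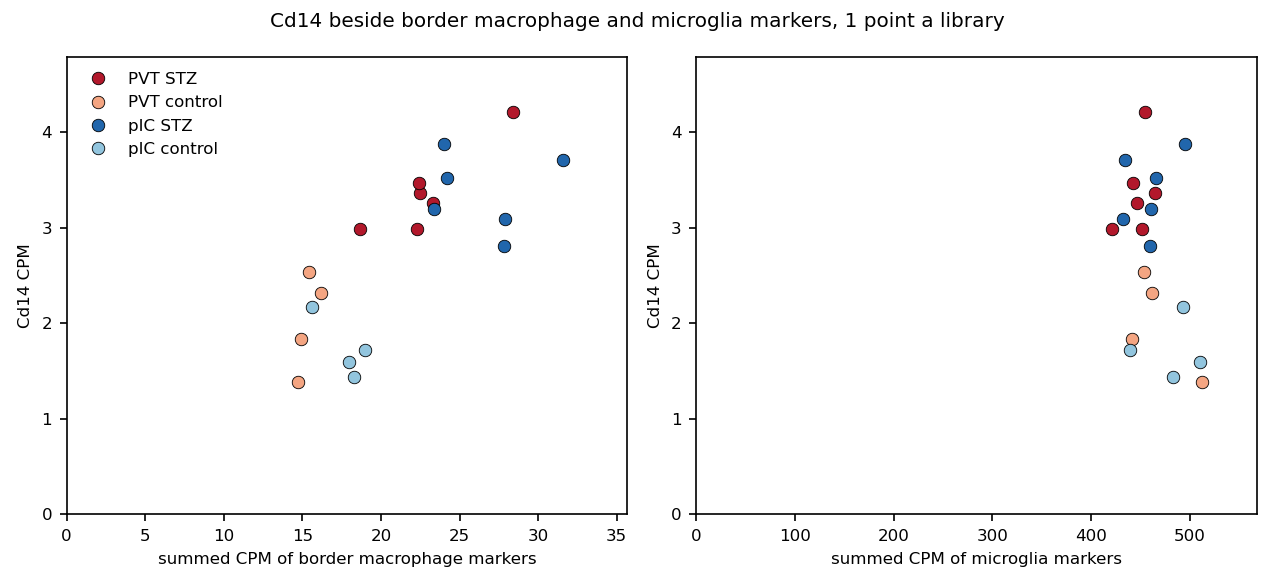
Cd14 level (vertical axis, CPM) against the summed level of 8 border macrophage genes (left) or 14 microglia genes (right; horizontal axes, CPM), 1 point per library, both axes from 0. STZ libraries lie above control libraries on the Cd14 axis in both panels, and to their right on the border macrophage axis within each region.

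Tlr4, the signalling receptor for LPS, and Ly96, whose product MD-2 holds the lipid A part of LPS, were not called in either region. Tlr4 had 0.849, 1.34 and 1.58 CPM as lowest, median and highest of the PVT STZ libraries, and 1.52, 1.2, 0.446 and 1.95 CPM in PVT control libraries. In pIC it had 0.678, 1.13 and 1.47 CPM in STZ libraries, and 1.44, 0.917, 0.932 and 1.29 CPM in control libraries. The groups overlapped in both regions, and in PVT the STZ libraries lay inside the range of the controls. The log2 fold changes were −0.03 in PVT (SE 0.333, 95% interval −0.76 to 0.70, adjusted p = 0.978, edgeR) and −0.01 in pIC (SE 0.242, 95% interval −0.53 to 0.51, adjusted p = 0.992), and their sign turned under several alternatives. Without PVT control replicate 4 the PVT value was 0.27, and without pIC STZ replicate 3 the pIC value was −0.11. With 10 to 53 counts per library, changes of Tlr4 within these intervals are not excluded.

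Ly96 had only 4 to 19 counts per library. Its lowest, median and highest were 0.162, 0.408 and 0.655 CPM in PVT STZ libraries, against 0.66, 0.415, 0.312 and 0.698 CPM in PVT control libraries, and 0.441, 0.627 and 0.788 CPM in pIC STZ libraries, against 0.449, 0.531, 0.785 and 0.601 CPM in pIC control libraries. The groups overlapped in both regions. The log2 fold changes were −0.26 in PVT (SE 0.384, adjusted p = 0.775, edgeR) and 0.06 in pIC (SE 0.270, adjusted p = 0.955), the second of which was negative in some alternatives. Without PVT control replicate 4 the PVT value was −0.07, and without pIC STZ replicate 3 the pIC value was 0.15. The 95% intervals, −1.10 to 0.58 in PVT and −0.52 to 0.65 in pIC, hold changes of either sign, which are not excluded at this depth.

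Tlr2, the receptor for bacterial lipoproteins, was lower on average in STZ than in control libraries of both regions, but was called in neither. It had 0.951, 1.52 and 1.9 CPM as lowest, median and highest of the PVT STZ libraries, against 2.69, 1.57, 1.47 and 2.17 CPM in PVT control libraries. In pIC the STZ libraries had 0.537, 0.865 and 1.05 CPM, against 0.674, 0.869, 1.47 and 1.34 CPM in control libraries. The groups overlapped in both regions. The log2 fold changes were −0.39 in PVT (SE 0.235, 95% interval −0.91 to 0.12, adjusted p = 0.419, edgeR) and −0.35 in pIC (SE 0.269, 95% interval −0.93 to 0.22, adjusted p = 0.666), and they kept their sign without any 1 library.

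Myd88, the adaptor of both receptors, had 4.26, 5.31 and 5.72 CPM as lowest, median and highest of the PVT STZ libraries, against 5.38, 5.44, 6.46 and 6.98 CPM in PVT control libraries. In pIC the STZ libraries had 4.58, 5.85 and 6.1 CPM, against 5.7, 6.28, 5.84 and 6.15 CPM in control libraries. The groups overlapped in both regions. The log2 fold changes were −0.22 in PVT (SE 0.115, 95% interval −0.48 to 0.03, adjusted p = 0.347, edgeR) and −0.08 in pIC (SE 0.105, 95% interval −0.30 to 0.15, adjusted p = 0.838), and without PVT control replicate 4 the PVT value was −0.15. With 93 to 190 counts per library Myd88 had the narrowest intervals of the 6 genes.

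Whether STZ acted differently in the 2 regions was tested for each gene, and the difference was not called for Cd14, Tlr4, Ly96, Tlr2 or Myd88, each with an adjusted p of 1.0 in edgeR and an unadjusted p over 0.05. Over all 17427 genes, 0.0% were called in this comparison (0 genes, with 701 at an unadjusted p under 0.05), while DESeq2 called 4 and limma-voom 0. Besides Cd14, the differences were −0.03 for Tlr4 (SE 0.417), −0.34 for Ly96 (SE 0.461), −0.05 for Tlr2 (SE 0.364) and −0.16 for Myd88 (SE 0.147), PVT effect minus pIC effect. Without PVT control replicate 4 they were 0.26 for Tlr4, −0.15 for Ly96, −0.01 for Tlr2 and −0.08 for Myd88. A p that misses the threshold does not show that the effects were alike.

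**Figure D4:**
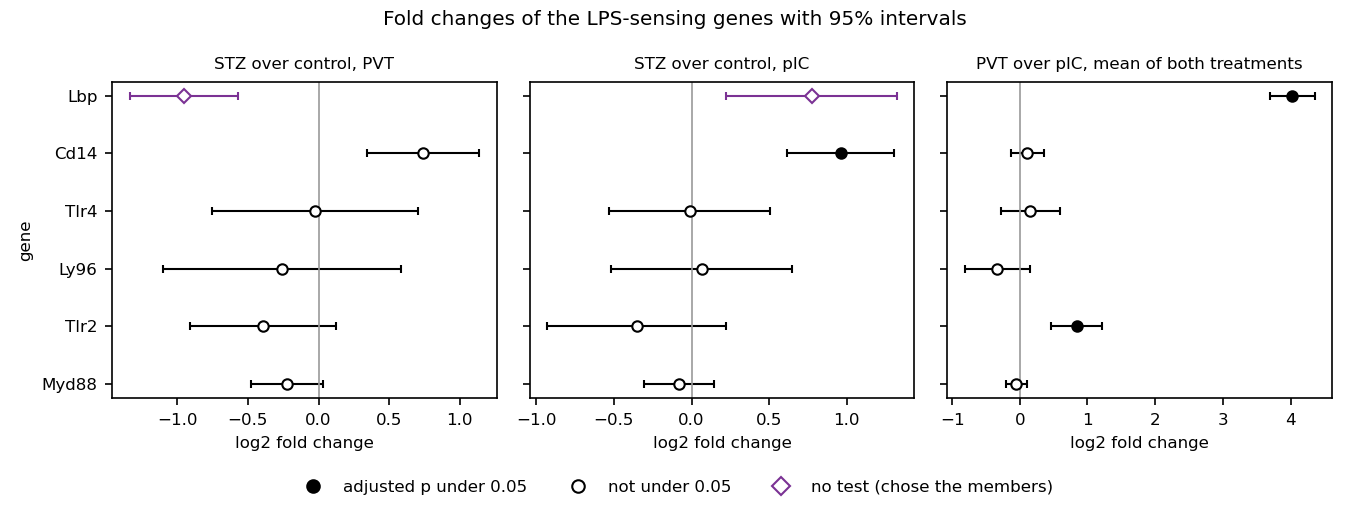
Log2 fold changes (horizontal axes) of the 6 LPS-sensing genes (rows) for STZ over control in PVT (left) and pIC (middle) and for PVT over pIC as the mean of both treatments (right), with 95% intervals. Filled circles have an adjusted p under 0.05 (Cd14 in pIC, and Lbp and Tlr2 between regions), and open circles do not. Diamonds mark the Lbp values that chose the genes and were not tested, so their intervals cannot be read as a test.

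Between the regions, Lbp and Tlr2 were higher in PVT than in pIC, and the other 4 genes were not called. This comparison averages the gap between regions over STZ and control libraries and does not use the STZ effects that chose the genes. The log2 difference of Lbp, PVT over pIC, was 4.02 (SE 0.158, adjusted p = 7.5e-13, edgeR), or 16.3-fold, with 11.8 to 40.3 CPM in PVT and 0.786 to 2.25 CPM in pIC libraries. The gap was 3.16 in STZ libraries alone and 4.90 in control libraries alone. That of Tlr2 was 0.84 (SE 0.179, adjusted p = 4.0e-04), or 1.79-fold, although the regions overlapped between 0.951 and 1.47 CPM.

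The differences of Cd14 (0.11, SE 0.116), Tlr4 (0.16, SE 0.209), Ly96 (−0.33, SE 0.231) and Myd88 (−0.05, SE 0.0735) had adjusted p from 0.221 to 0.577, with the sign of Tlr4 and Myd88 turning in some alternatives. Without PVT control replicate 4 the difference of Tlr4 was 0.01. Of all genes, 33.8% were called higher and 28.7% lower in PVT, so 2 called of 6 is not a result about these genes. The 13 choroid plexus genes were all higher in PVT (median 5.83), as were the 10 ependyma genes (median 3.73), while of the 14 microglia genes 1 was higher and 4 were lower (median −0.06). Against a minimum fold of 2 Lbp was called and Tlr2 was not.

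Around the 6 genes, 111 genes in 10 lists of the pathway were followed. In PVT 82 of them were tested, of which 1 rose (1.22%) and 5 fell (6.1%), and in pIC 75 were tested, of which 3 rose (4.0%) and 1 fell (1.33%). Their median log2 fold change was 0.01 in PVT and 0.02 in pIC. These shares stand beside 0.474% and 1.59% of all genes in PVT and 0.432% and 0.964% in pIC. The lists were chosen with earlier results of these data known, so a higher share in them is not a result about the pathway.

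Upstream of the receptors, the clearest change was in a relative of LBP. Pltp, the phospholipid transfer protein of the same lipid-binding family, fell in STZ punches of both regions. It averaged 90.8 ± 6.48 CPM in STZ and 139 ± 7.28 CPM in control libraries of the PVT (SD, n = 6 and 4; log2 fold change −0.62, SE 0.0641, adjusted p = 4.8e-04, edgeR). In pIC it averaged 47.6 ± 3.35 CPM in STZ and 77.4 ± 15.3 CPM in control libraries (−0.70, SE 0.103, adjusted p = 0.00369, from 8.9e-08 to 0.0694 over the alternatives, the highest with the microglia score). Alpl, an alkaline phosphatase that can remove phosphate from lipid A, fell in PVT (−0.71, SE 0.135, adjusted p = 0.0238), a call that was lost without STZ replicate 1 or 4 or control replicate 1, 2 or 4. Its adjusted p ran from 2.4e-04 to 0.398 over the alternatives, the highest with the choroid plexus score. In this list of LPS binding and clearance genes 2 of 5 tested fell in PVT and 1 of 4 in pIC, and 0 rose.

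Among 10 other Toll-like receptors, 7 were tested in each region. Tlr3, the endosomal receptor for double-stranded RNA, fell in PVT to 9.44 ± 0.537 CPM in STZ libraries, against 13.3 ± 1.07 CPM in control libraries (−0.49, SE 0.0767, adjusted p = 0.00803, from 5.3e-05 to 0.159 over the alternatives, the highest with the choroid plexus score). In pIC Tlr3 had a log2 fold change of −0.42 (adjusted p = 0.0548) and Tlr7, the receptor for single-stranded RNA, of 0.53 (adjusted p = 0.0704), so 0 of 7 passed there with edgeR, 4 had an unadjusted p under 0.05, and DESeq2 called 2. Of all genes tested, 17.8% in PVT and 11.8% in pIC had an unadjusted p under 0.05, and such counts in these lists stand beside those shares. The chaperone and trafficking list had 0 of 7 called in each region (unadjusted p under 0.05 for 2 in PVT and 1 in pIC; DESeq2 called 1 and 0). Its genes of smallest p were Unc93b1, the escort of endosomal receptors (log2 fold change −0.35 in PVT and −0.23 in pIC), and Cnpy3, a chaperone of TLR4 (−0.15 in PVT and −0.13 in pIC).

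Downstream of Myd88, the kinases, ubiquitin enzymes and NF-kB subunits of the MyD88 arm had 0 of 16 genes called in each region with edgeR. The unadjusted p was under 0.05 for 2 genes in PVT and 0 in pIC, DESeq2 called 1 in PVT and 0 in pIC, and limma-voom called 0 in both. The medians were 0.01 in PVT and 0.05 in pIC, and the genes of smallest p were Tab1 (0.29) and Irak4 (−0.41) in PVT and Ikbkg (−0.10) and Tab2 (0.13) in pIC. The TRIF arm, the interferon branch of TLR4, had 0 of 7 called in PVT and 0 of 6 in pIC with edgeR, DESeq2 and limma-voom, with 1 and 0 genes at an unadjusted p under 0.05. Its genes of smallest p were Tbk1 (0.21) and Irf3 (0.12) in PVT and Traf3 (0.12) and Irf3 (0.09) in pIC.

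Of the genes that restrain TLR4, Nfkbia rose in both regions. It encodes the inhibitor that holds NF-kB in the cytoplasm and is itself a target of NF-kB and of the glucocorticoid receptor. In PVT it averaged 36.2 ± 5.79 CPM in STZ and 19.1 ± 2.97 CPM in control libraries (0.92, SE 0.139, adjusted p = 0.00729, from 1.3e-07 to 0.209 over the alternatives, the highest with the choroid plexus score). In pIC it averaged 31.1 ± 2.38 CPM in STZ and 17.5 ± 3.59 CPM in control libraries (0.83, SE 0.109, adjusted p = 0.00108). The other 10 tested genes of this list were not called by edgeR in either region. With Nfkbia, 6 of the 11 in PVT and 5 in pIC had an unadjusted p under 0.05. DESeq2 called 2 genes of the list in PVT and 1 in pIC, and limma-voom called 1 in PVT and 2 in pIC. Outside the rule for named genes and named after their values were seen, Socs1, a suppressor of cytokine signalling, had −0.90 in PVT (adjusted p = 0.0687 with edgeR, 0.0378 with DESeq2 and 0.0903 with limma-voom). Sigirr, an inhibitory receptor of the superfamily that holds the Toll-like receptors, had −0.82 in pIC (adjusted p = 0.0511 with edgeR, 0.0671 with DESeq2 and 0.0305 with limma-voom).

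LPS target genes were mostly below the filter on low counts. Of 16 such genes 7 were tested in PVT and 4 in pIC. In PVT, Tnf averaged 0.0135 CPM in STZ and 0.0434 CPM in control libraries and Il6 averaged 0.0598 CPM in STZ and 0.084 CPM in control libraries, both below the filter. Cxcl10, an interferon-induced chemokine, fell in PVT to 0.192 ± 0.0825 CPM in STZ libraries, against 1.18 ± 0.972 CPM in control libraries (−2.60, SE 0.513, adjusted p = 0.0277). That call was lost without PVT STZ replicate 3, 4, 5 or 6 or control replicate 4, and its adjusted p ran from 5.8e-04 to 0.323 over the alternatives, the highest with the choroid plexus score. In pIC 0 of 4 were called with edgeR, 1 had an unadjusted p under 0.05 (Ptgs2, the inducible cyclooxygenase, −0.53, adjusted p = 0.127), and DESeq2 called 1.

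In the cytosolic arm of LPS sensing, which runs through caspase-11 and gasdermin D, 0 of 7 genes were called in PVT and 0 of 6 in pIC with edgeR, DESeq2 and limma-voom, with 1 gene in each region at an unadjusted p under 0.05. Pycard, the inflammasome adaptor, had log2 fold changes of −0.50 in PVT and −0.35 in pIC, Il18 −0.22 in PVT, and Gsdmd −0.49 in pIC.

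Among acute phase genes, the class to which liver Lbp belongs, edgeR called 1 gene in each region. C3, the central complement component, fell in PVT to 2.85 ± 0.56 CPM in STZ libraries, against 5.82 ± 0.985 CPM in control libraries (−1.03, SE 0.169, adjusted p = 0.0109, from 7.2e-06 to 0.295 over the alternatives, the highest with the choroid plexus score). Serpina3n, a protease inhibitor of reactive astrocytes, rose in pIC (20.2 ± 3.12 CPM in STZ and 13.8 ± 1.28 CPM in control libraries, 0.55, SE 0.112, adjusted p = 0.0261), a call lost without STZ replicate 1 or 4 or control replicate 1, 3 or 4. Its adjusted p ran from 8.2e-04 to 0.258 over the alternatives, the highest in a fit of all 20 libraries. In this list 1 of 7 tested genes fell in PVT and 1 of 6 rose in pIC, and the median log2 fold change was 0.11 in PVT and 0.52 in pIC. The unadjusted p was under 0.05 for 4 genes in each region, DESeq2 called 2 in PVT and 4 in pIC, and limma-voom called 1 in PVT and 3 in pIC. Among the inducers of acute phase genes, Cebpd, a transcription factor that binds their promoters in liver, rose in pIC (7.0 ± 1.27 CPM in STZ and 3.51 ± 0.741 CPM in control libraries, 0.99, SE 0.166, adjusted p = 0.00657, from 4.1e-06 to 0.0935 over the alternatives, the highest with the microglia score). The other 8 tested genes of that list were not called in pIC and none of 9 was in PVT, where 1 had an unadjusted p under 0.05 (Osmr, an oncostatin M receptor, 0.65, adjusted p = 0.146) and DESeq2 and limma-voom called 0.

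**Figure D5:**
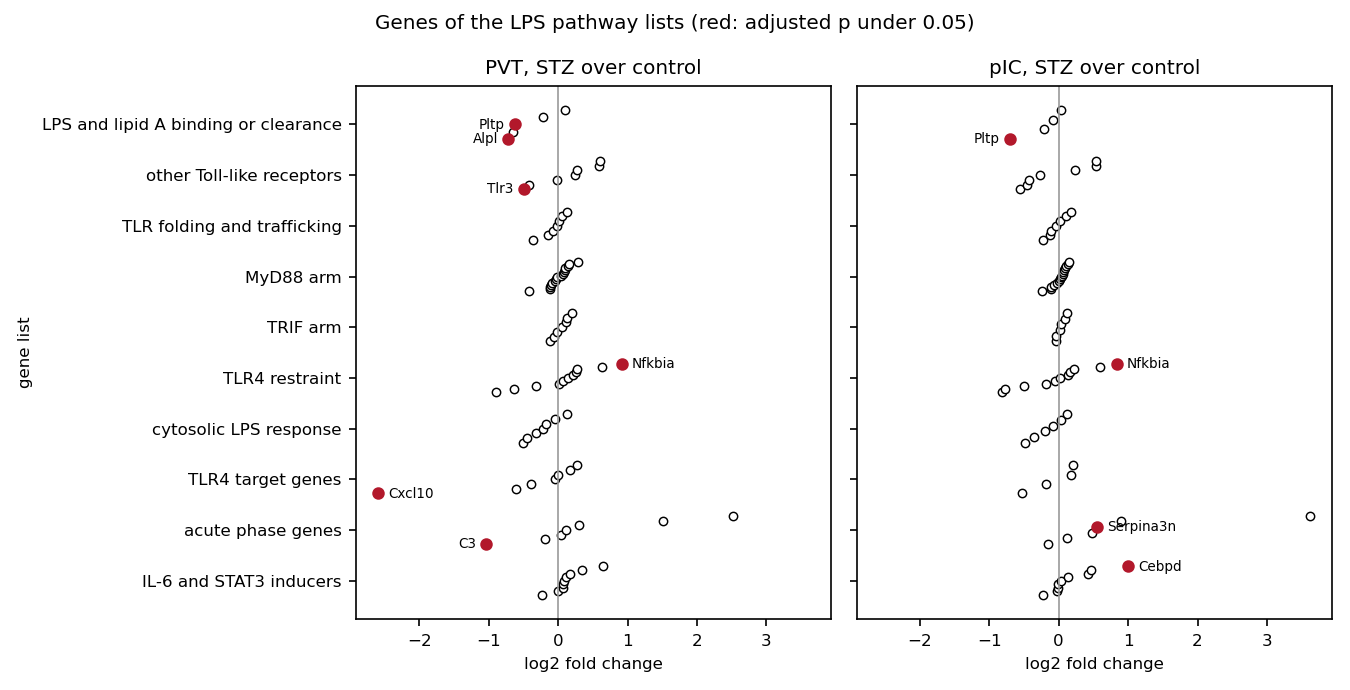
Log2 fold changes of STZ over control (horizontal axes) in PVT (left) and pIC (right) for the tested genes of 10 LPS pathway lists (rows; a gene may be in more than 1 list, and vertical spread within a row only separates points). Red points, named, have an adjusted p under 0.05 (5 lower and 1 higher in PVT, 1 lower and 3 higher in pIC), and the 2 rows for the MyD88 and TRIF arms hold no red point.

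The genes most like each member were ranked by the lower of 2 Pearson correlations of log2 CPM, over the 10 PVT and the 10 pIC libraries, among 14764 genes. The libraries of a region share treatment and dissection, so the ranking is a description. For Lbp the 8 nearest genes were led by Csrp2, a LIM-domain protein (0.88 in PVT and 0.90 in pIC), and went on with Sft2d3, Cab39l, Micu2, Ctf1, Steap4, Fam160a1 and Slc16a12 (lower correlation 0.70 to 0.74). All 8 had a negative log2 fold change in PVT and a positive one in pIC, as the likeness to Lbp requires, and none was called in either region; those of Csrp2 were −0.62 (adjusted p = 0.149) and 0.25 (adjusted p = 0.523).

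For Cd14 the nearest genes were Sult1a1, a phenol sulfotransferase, Plin4, a lipid droplet coat protein, and Slc25a51, the mitochondrial NAD carrier, with lower correlations of 0.86 to 0.87. Sult1a1 rose by 0.92 in PVT (adjusted p = 0.0038) and 0.90 in pIC (adjusted p = 6.9e-04), Plin4 by 2.05 (adjusted p = 0.00143) and 2.16 (adjusted p = 0.0402), and Slc25a51 had 0.19 (adjusted p = 0.0955) and 0.18 (adjusted p = 0.074). Tlr2 was nearest to Rfx2, a transcription factor of ciliated cells, Cgn, the tight junction protein cingulin, and Cobll1. Their correlations with Tlr2 were 0.78, 0.89 and 0.92 in PVT and 0.78, 0.73 and 0.73 in pIC. With the choroid plexus score Tlr2 had a correlation of 0.65 in PVT and −0.085 in pIC. With the microglia score it had 0.13 in PVT and 0.26 in pIC. Its strongest value with a marker list in PVT was −0.77, for cortical excitatory neurons. For Tlr4 the nearest were Nup210, Lmnb2 and E430024P14Rik, for Ly96 Nrip2, Itpkb and Egflam, and for Myd88 Anapc11, Tmem218 and Lsm4, none of them called in either region.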

How the data were processed

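Poly(A)-selected, stranded libraries of 20 PVT and pIC punches were sequenced, per the labels' protocols. The authors deposited raw counts per Ensembl gene identifier, 1 column per library and none pooled, on genome build GRCm39 (mm39) per the submitters' processing notes. Aligner, counting program, strand setting and annotation release: not given in the sources used here. The annotation at hand is of another build and served only to match 51884 of 57180 identifiers to symbols. No 2 libraries of a group were duplicates (lowest chi-square per degree of freedom 3.79 over 42 pairs).

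Groups were taken from the labels. The members and gene lists were chosen with earlier results of these data known. Counts were fitted with edgeR 4.0.16 (R 4.3.3), using TMM factors and the robust quasi-likelihood test after filtering low genes with filterByExpr at a count of 10 and a total of 15, each region alone for STZ against control and all 20 libraries in 1 fit for comparisons involving both regions. Adjusted p is the Benjamini-Hochberg value over all tested genes, called under 0.05. CPM uses TMM-scaled totals, and log2 CPM adds a prior count of 2. A marker score is the mean log2 CPM of a list. Named genes were the 6 members, up to 4 called genes of each pathway list by smallest p (the 2 of smallest p where none was called), the 8 genes most like Lbp and the 3 most like each other member, with a mean of at least 1 CPM. Marker genes are named with them as context.

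Alternatives were RLE and upper quartile scaling, no filter, DESeq2 1.42.0, and limma-voom (limma 3.58.1) with quality weights. A replicate block was also fitted, on the replicate number within a region and on the animal-like code for comparisons involving both regions. Further alternatives were all 20 libraries in 1 fit, microglia and choroid plexus scores as covariates, each library left out, and glmTreat against a fold of 2. Single treatments between regions and two-sided exact permutation tests of single members were run as well. On simulated data of this design the edgeR fit recovered 52.2%, 70.8% and 91.9% of genes changed by 1.5, 2 and 4 fold in PVT (16883 genes) and 55.4%, 83.6% and 98.5% in pIC (16027 genes). For the difference between regions it recovered 32.8%, 71.2% and 93.5% (17168 genes). Unchanged genes made up 11.5% of its calls in PVT, 6.02% in pIC and 5.22% for that difference. The changed genes were drawn at random from all tested genes, so these shares do not describe genes with few counts. SEs reflect variation among the libraries compared.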

Additional observations from a re-analysis of the deposited data

Results flagged for a closer look

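Of 24 groups tested for a library far from the others (6 genes in 4 groups), 1 stood out. Lbp in pIC STZ replicate 6 was 1.16 CPM, a gap to the nearest library of 0.703 of the range of its group, above Dixon's critical value for a group of 6. It rests on 21 counts. Without this library the log2 fold change of Lbp in pIC was 0.88. Chance flags about 1 in 20 such groups.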

How the results depend on the processing

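Lbp kept its direction for PVT against pIC under every alternative run. For STZ against control Lbp also did so in both regions, but there its values chose the genes. Its STZ log2 fold change moved by more than the SD between replicates (0.317 in PVT and 0.408 in pIC, log2 CPM) once, to −0.47 in PVT with the choroid plexus score. In PVT it ran from −1.05 to −0.85 over the left-out libraries, and in pIC it was 1.07 without control replicate 3. Between regions Lbp was 3.16 in STZ libraries alone and 4.90 in control libraries alone. Of the 5 other members, the count called in PVT was 1 (Cd14) with DESeq2, limma-voom and all 20 libraries in 1 fit, and 0 without any 1 library. In pIC it was 0 with the microglia score and 1 without any 1 library. In PVT, Tlr3, C3, Nfkbia, Alpl and Cxcl10 were not called with either marker score. Causes were not tested. Scores cost residual degrees of freedom, and border macrophage scores were not fitted.

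Tlr4 changed sign often. In PVT it was 0.288 with limma-voom, 0.174 with the replicate block, 0.116 with the choroid plexus score, 0.117 in the exact permutation test on log2 CPM and −0.311 to 0.267 without 1 library. In pIC it was 0.165 with the replicate block, 0.0995 with the microglia score and −0.107 to 0.115 without 1 library. The difference between regions for Tlr4 was 0.429 with limma-voom, 0.0632 with the replicate block and −0.311 to 0.261 without 1 library, and that for Tlr2 −0.22 to 0.133 without 1 library. Ly96 in pIC was −0.138 with the microglia score and −0.0506 to 0.229 without 1 library. Irf3 in pIC was −0.00365 with limma-voom. Between regions Tlr4 was −0.104 with limma-voom, and Myd88 0.0125 with upper quartile scaling and 0.0305 in control libraries alone. All these values missed the threshold in either direction.

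The labels do not say whether PVT and pIC libraries that share a code share an animal. Same-numbered STZ and control libraries had different treatments and so are different animals. Their deviations had correlations of −0.261 to 0.45 (8 pairs). Deviations of PVT and pIC libraries of the same code had correlations of −0.118 to 0.251 (10 pairs), which does not settle whether a code is an animal. With the code as a replicate block, 0 genes were called for the difference between regions in the response to STZ, and 2 members (Lbp and Tlr2) between regions. Within a region the block was the replicate number, which pairs STZ and control libraries of different animals. This number block left 72 genes called in PVT, and under it Cd14 in pIC had an adjusted p of 0.0496 (edgeR). Genes called in PVT numbered 875 with DESeq2, 679 with all 20 libraries, 79 with the microglia score, 60 with the choroid plexus score and 143 to 343 without 1 library. The count was over 1.5 times lower without STZ replicate 1 (210), 3 (206) or 4 (151) or control replicate 1 (156), 3 (211) or 4 (143). Upper quartile scaling called 58 higher and 416 lower in PVT, against 81 higher and 272 lower with TMM. In pIC the count was 455 with DESeq2, 360 with limma-voom, 75 with the microglia score and 128 to 272 without 1 library, lowest without control replicate 1 (133), 2 (128) or 4 (139). The difference between regions had 1 gene with no filter, 4 with DESeq2, and 0 to 3 without 1 library (3 without PVT control replicate 2, 1 without pIC STZ replicate 1). Against a fold of 2, 1170 genes and 1 member (Lbp) differed between regions.

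With 4 to 19 counts of Ly96, 10 to 53 of Tlr4 and 11 to 59 of Tlr2 per library, changes within the printed intervals are not excluded.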

Other observations

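Lcn2, an iron-binding acute phase protein that LPS induces in many cells, fell outside the rule for named genes and was named after its values were seen. It had between 0.327 and 15.6 CPM in the PVT STZ libraries, against 0.355 to 3.45 CPM in PVT control libraries, and between 0.509 and 22.0 CPM in pIC STZ libraries, against 0.18 to 2.75 CPM in pIC control libraries. The ranges overlapped in both regions, since the lowest STZ library lay below every control in PVT and among the controls in pIC. The log2 fold change of Lcn2 was 2.51 in PVT (adjusted p = 0.187 with edgeR, 0.0815 with DESeq2 and 0.411 with limma-voom). In pIC it was 3.62 (adjusted p = 0.182 with edgeR, 0.00839 with DESeq2 and 0.223 with limma-voom). Lrg1, a secreted acute phase glycoprotein of vessels, had 2.33 to 5.47 CPM in pIC STZ and 1.43 to 1.96 CPM in pIC control libraries without overlap (adjusted p = 0.0846, edgeR, 0.0213 with DESeq2 and 0.0488 with limma-voom). In PVT Lrg1 had 0.286 to 2.72 CPM in STZ and 0.461 to 0.981 CPM in control libraries, which overlap (log2 fold change 1.52, adjusted p = 0.154 with edgeR, 0.0445 with DESeq2 and 0.252 with limma-voom).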
